A study of Macaca fuscata with 12 samples.

Results

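Membrane vesicle traffic was examined through the genes of its small GTPases, fusion proteins and calcium sensors in the parietal cortex of Japanese macaques (Macaca fuscata). The set held every probe set with exactly 1 gene symbol in the RAB, syntaxin (STX), syntaxin-binding (STXBP), VAMP, SNAP, synaptotagmin (SYT), synapsin (SYN), SV2, complexin (CPLX) or NSF and NAP families. It comprised 144 probe sets of 79 genes, out of 52766 probe sets measured. Of these, 81 probe sets covered 39 RAB genes, 18 covered 11 syntaxins, 16 covered 11 synaptotagmins, 9 covered 6 VAMPs and 7 covered 3 syntaxin-binding genes. The remaining probe sets covered SYN2 with 3, SV2A, SV2B and SV2C with 1 each, NAPA with 2, NAPG with 1, CPLX2 with 2, and SNAP47 and SNAP91 with 1 each. The genes RAB3C, RAB11A, SNAP25, SYT2, SYP, SYN1, SYN3, CPLX1, NSF and NAPB were not analysed here.

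The study hybridised RNA of the left hemisphere to rhesus macaque expression arrays, with 4 groups of 3 arrays. The groups were SII from animals trained in tool use, SII from control animals, IPS from trained animals and IPS from control animals. SII denotes tissue from the lateral sulcus region, which takes in secondary somatosensory cortex, and IPS denotes tissue from the intraparietal sulcus region. The 12 arrays came from 8 animals, of which 4 gave both regions: trained replicates 1 and 3 were the same animals in both regions, and controls 2 and 3 of SII were controls 1 and 2 of IPS. Animals were aged from 3 years 9 months to 6 years. Each array thus stands for 1 animal, and tissue blocks of this kind mix neurons, glia and vessels, so that fewer cells of a type and less RNA per cell cannot be told apart. The sources used here do not say whether the regions were hybridised together, so region and any such batch cannot be told apart.

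Rab GTPases are molecular switches that mark the compartments of the secretory and endocytic pathways and recruit the motors and tethers that carry vesicles to their targets. SNARE proteins on the vesicle (VAMPs) and on the target membrane (syntaxins and SNAP proteins) then zip together to fuse them, under the control of syntaxin-binding proteins, and NSF with its NAP adaptors takes the spent complexes apart. At synapses, synaptotagmins and complexins tie this fusion to calcium, and synapsins and SV2 proteins belong to the transmitter vesicle itself.

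Every value is a log2 signal minus the probe set's own median across the 12 arrays, so it carries no level, and genes were not ranked by level. A coarse signal class could be recovered. In the vesicle traffic set, 23 probe sets reached a signal of 256 or more in 11 or all 12 arrays (high), and 81 reached 16 or more in as many (middle). Another 31, without floor values, met neither mark (low). The other 9 (6.25%, against 18.8% of all probe sets) sat at the array's lowest possible value, or floor, in 2 or more arrays, where a value is only an upper limit. Of the neuron marker probe sets, 5 of 6 had a high signal, as did all 4 of oligodendrocytes and 4 of 6 of astrocytes. The neuron and oligodendrocyte probe sets covered only 2 of 6 and 2 of 7 listed genes. Of the excitatory and GABA neuron markers, 2 of 6 and 1 of 7 had a high signal. None did among 5 of oligodendrocyte precursors, 15 of microglia, 10 of endothelium and 13 of meninges. The same held for 1 of choroid plexus, 4 of red cells and 5 of mast cells and platelets.

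Several arrays stood apart. Spike-in controls of the hybridisation had a median of 0.54 in SII trained 2, 0.46 in IPS trained 3 and 0.45 in SII control 1, against -0.13 to 0.08 elsewhere, and the SII arrays among these were the 2 from female animals. Both of them were the lowest of all 12 arrays for 14 of the 144 probe sets (9.72%, against 7.30% of all probe sets) and the highest for 18 (12.5%, against 9.42%). STX16 probe set 1, for a syntaxin of the trans-Golgi network, lay at -1.72 in SII trained 2 and -3.19 in SII control 1. RAB8B probe set 2 lay at -2.26 and -2.59 in the same arrays, with every other array at -0.94 or above. The 3' minus 5' signal of GAPDH, which rises when RNA is degraded, was 0.72, -0.02 and -0.24 in SII trained arrays and -0.22, -0.27 and -0.57 in SII control arrays. In IPS it was -0.28, 0.07 and 1.01 in trained arrays and 0.33, 0.04 and -0.03 in control arrays. The same measure of actin varied more. It was 1.17, 0.63 and -1.54 in SII trained arrays and 0.25, -1.87 and -1.71 in SII control arrays. For IPS it was -0.79, 0.54 and 1.37 in trained arrays and 0.02, 0.23 and 0.05 in control arrays. The part of these differences in the results below was not tested beyond leaving the 3 arrays with raised spike-ins out, and the value without them follows each difference printed with its standard error (SE).

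No vesicle traffic gene passed the test for tool-use training in either region. In SII, limma called 0 of the 144 probe sets at a false discovery rate of 5%, as it called 0% of all 52766, and the smallest adjusted p of the set was 1.00. At an unadjusted p under 0.05 there were 6 probe sets (4.17%, against 3.87% of all), 3 higher where 2.53% of all were higher and 3 lower where 1.35% were lower. In IPS limma again called 0 of 144 (0% of all), with 2 at an unadjusted p under 0.05, both higher in trained animals (1.39%, against 3.27% of all, or 1.81% counting the higher alone). A single probe set compared over 3 and 3 arrays cannot reach an exact permutation p below 0.1. The median difference between trained and control animals over the set was 0.01 in SII and 0.06 in IPS, against 0.06 and 0.01 over all probe sets. Leaving out 1 array took the IPS median to -0.0054 (without IPS trained 1) or 0.12 (without IPS trained 3), and leaving out the 3 arrays gave 0.12. The SII median turned to -0.05 after quantile normalization and -0.04 after centring each array.

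Trained and control arrays did not overlap for 9 probe sets in SII, 4 higher and 5 lower (6.25% together, against 7.08% of all probe sets, 4.7% higher and 2.38% lower). In IPS they did not overlap for 12 probe sets, 10 higher and 2 lower (8.33% together, against 9.49% of all, 5.77% higher and 3.72% lower). Both shares lay below those of all probe sets.

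**Figure D1:**
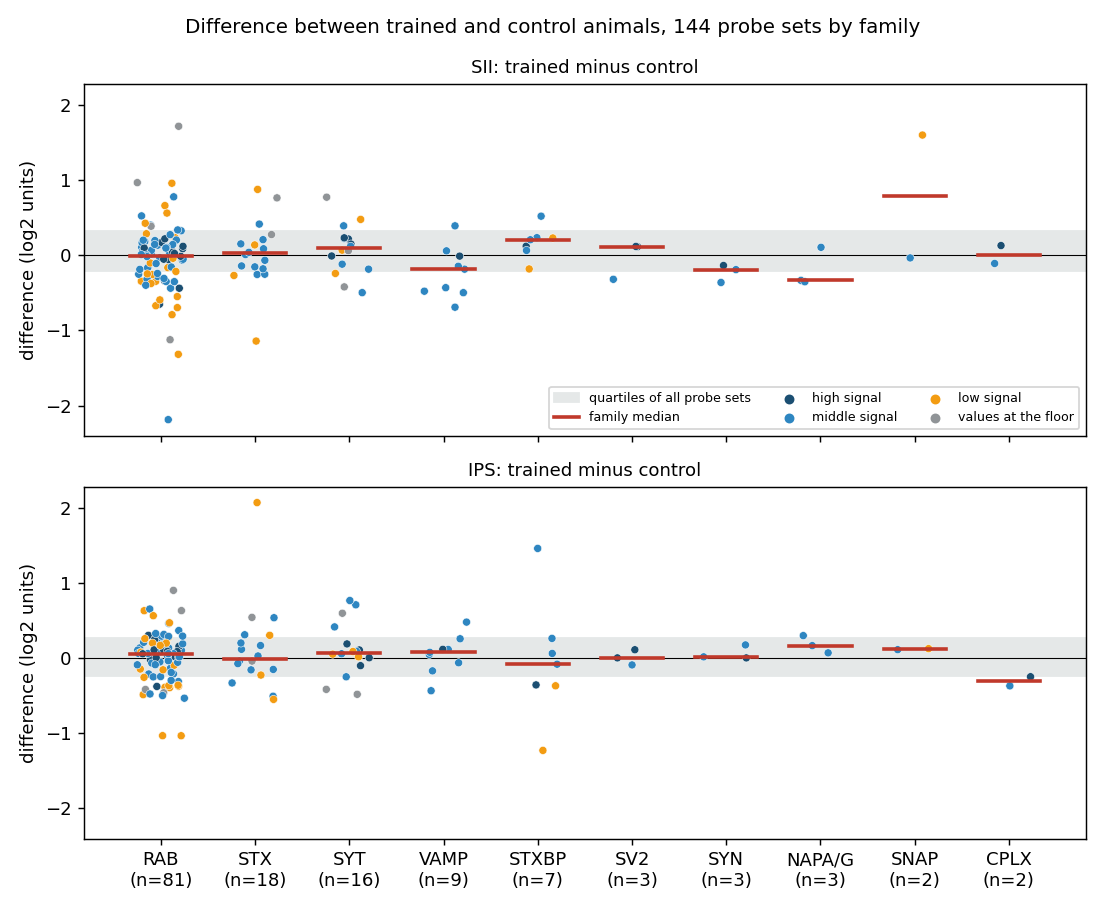
Difference between trained and control animals in log2 units (vertical axis) for the 144 vesicle traffic probe sets, by family, in SII (top) and IPS (bottom). Points are probe sets coloured by signal class, red bars are family medians and the grey band runs from the lower to the upper quartile of all 52766 probe sets. Most points lie in or near the band, and the widest differences come from middle, low and floor probe sets.

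By family, the medians over the probe sets stayed close to 0 in the large families. For the RABs the difference between trained and control animals had a median of -0.01 in SII and 0.06 in IPS, with 40 and 48 of 81 probe sets above 0, where 56.4% and 51.7% of all probe sets were. For the syntaxins it was 0.02 and 0.00 with 10 and 9 of 18 above 0, and the SII sign turned under both other scalings. For the synaptotagmins it was 0.09 and 0.07 with 10 and 12 of 16 above 0. The VAMPs had -0.19 in SII with 2 of 9 above 0, and 0.08 in IPS with 6 of 9. Syntaxin-binding genes had 0.21 and -0.08, with 6 and 3 of 7 above 0. None of these families had a probe set past the test.

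Family medians were also taken array by array. Over the RABs the median value was -0.02, 0.01 and -0.03 in SII trained arrays and 0.03, -0.01 and -0.03 in SII control arrays. In IPS it was 0.19, 0.05 and -0.12 in trained arrays and -0.05, 0.05 and -0.03 in control arrays. IPS trained 1 and 3 thus bracketed the controls. Over the VAMPs the median was -0.08, -0.10 and -0.03 in SII trained arrays, below 0.11, 0.31 and 0.11 in SII control arrays, so the medians of the groups were separate. Taken singly, 1 of the 9 VAMP probe sets was separate there. The VAMP probe sets in IPS gave -0.01, 0.10 and -0.43 in trained and -0.22, 0.03 and -0.02 in control arrays, which overlapped.

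The syntaxins had array medians of -0.19, 0.05 and 0.08 in SII trained and 0.07, 0.02 and -0.11 in SII control arrays. In IPS they had 0.08, 0.10 and -0.03 in trained and -0.03, -0.01 and 0.00 in control arrays. For the synaptotagmins the medians were 0.04, 0.24 and 0.03 in SII trained and -0.02, -0.07 and 0.06 in SII control arrays. The groups of both families overlapped in SII, and so did those of the synaptotagmins in IPS, at 0.21, 0.00 and -0.09 in trained and 0.06, -0.01 and -0.07 in control arrays. Over SYN2 the medians were 0.04, 0.17 and 0.01 in SII trained arrays, all below 0.52, 0.31 and 0.29 in SII control arrays. Taken singly, 0 of the 3 SYN2 probe sets were separate in SII. Their correlation over the 12 arrays had a median of -0.29 between pairs, so the separation holds for the medians alone.

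The RABs of secretory and synaptic vesicles (RAB3A, RAB3B, RAB3D, RAB26, RAB27A, RAB27B and RAB37) had 4 of 11 probe sets above 0 in SII and 6 of 11 in IPS. RAB3A, the main RAB of synaptic vesicles, lay at 0.11, 0.65 and -0.49 in SII trained arrays and 0.34, -0.55 and 0.00 in SII control arrays. In IPS its values were -0.38, 0.24 and 0.22 in trained arrays and -0.42, 0.00 and -0.37 in control arrays. Both pairs of groups overlapped.

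RAB3B, a relative of RAB3A on secretory vesicles, was measured by 2 probe sets of low signal. Probe set 2 lay at -0.48, 0.10 and 0.12 in SII trained arrays and 0.50, 0.87 and 0.41 in SII control arrays. All 3 trained arrays were below all 3 controls, with a fitted difference of -0.67 ± 0.34 (SE; limma adjusted p = 1.00), or -0.81 without the 3 arrays. In IPS the same probe set had 0.03, -0.03 and -0.78 in trained arrays and -0.15, -0.88 and -1.15 in control arrays, which overlapped. RAB27B, which docks secretory granules, did not overlap in IPS in either of its probe sets, with trained arrays 0.90 ± 0.50 and 0.63 ± 0.52 higher (SE; limma adjusted p = 1.00 for both), or 0.99 and 0.68 without the 3 arrays. Leaving out IPS control 1 took the first to 0.44, and leaving out IPS trained 2 took the second to 0.38. Both probe sets held floor values, 2 and 8 of 12, and the second lost its sign when all arrays were given 1 common floor (-0.01).

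Among the RABs of the endoplasmic reticulum and Golgi (RAB1A, RAB1B, RAB2A, RAB6A, RAB6B, RAB30, RAB33A and RAB33B), 12 of 21 probe sets were above 0 in SII and 14 in IPS. RAB1A, needed for transport out of the endoplasmic reticulum, had 1 of 3 probe sets with separate groups in SII, at -0.10, -0.03 and 0.26 in trained and 0.34, 0.27 and 0.56 in control arrays. Its other probe sets differed by 0.11 and 0.13, the opposite sign. RAB6A, a Golgi RAB, had 1 of 4 probe sets with separate groups in SII, 0.43 ± 0.29 higher in trained arrays (SE; limma adjusted p = 1.00), or 0.41 without the 3 arrays. That probe set had a low signal, and the 3 others were below 0 in SII, down to -0.70. RAB30, another Golgi RAB, had 1 of 3 probe sets with separate groups in IPS, at -0.23, 0.23 and -0.55 in trained arrays and -0.81, -0.88 and -0.80 in control arrays. The fitted difference was 0.65 ± 0.38 (SE; limma adjusted p = 1.00), or 0.84 without the 3 arrays. The 2 other RAB30 probe sets were below 0 in IPS, down to -0.14.

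RAB2A, which acts between the Golgi and the endoplasmic reticulum, was the single member whose groups separated in both regions and in opposite directions. Its probe set 3 (MmugDNA.33650.1.S1_at, high signal) lay at -0.56, 0.03 and 0.26 in SII trained arrays and 0.31, 0.49 and 0.88 in SII control arrays. In IPS it lay at 0.35, -0.14 and -0.03 in trained arrays and -0.17, -0.16 and -0.39 in control arrays. Trained arrays were thus all below controls in SII and all above them in IPS, where the nearest arrays of the groups almost touched. The control groups themselves differed between the regions by -0.80, IPS minus SII, and the trained groups by 0.16. The opposite training differences and this gap between the control groups rest on the same arrays. The fitted differences were -0.65 ± 0.27 in SII and 0.30 ± 0.27 in IPS (SE; limma adjusted p = 1.00 for both), or -0.84 and 0.35 without the 3 arrays. Without SII trained 1 the SII difference was -0.41, and without IPS trained 1 the IPS difference was 0.15. The 4 other RAB2A probe sets, of which 2 had a high signal, gave -0.44, 0.22, 0.78 and -0.25 in SII and -0.38, 0.09, 0.46 and 0.23 in IPS.

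The endosomal and recycling RABs (RAB4A, RAB5A, RAB5C, RAB7A, RAB9B, RAB11B, RAB17, RAB20, RAB25, RAB31 and RAB35) had 12 of 25 probe sets above 0 in SII and 15 in IPS. Groups were separate for 0 of the 25 in SII, where they were for 7.08% of all probe sets. In IPS they were separate for 1 of the 25, against 9.49% of all. That was RAB17, a RAB of dendritic and epithelial sorting, with 0.76, 0.28 and 0.70 in IPS trained arrays and -0.35, -0.08 and 0.23 in IPS control arrays (difference 0.63 ± 0.33, SE; limma adjusted p = 1.00; 0.59 without the 3 arrays). RAB7A, the RAB of late endosomes, differed by 0.12 and -0.35 in SII and by 0.06 and 0.02 in IPS. RAB35, a recycling RAB, held the most negative value of the whole set in SII. Its probe set 3 lay at -2.73, -3.28 and 0.55 in SII trained arrays and 0.78, 0.18 and 0.16 in SII control arrays. Here 2 trained arrays lay far below and the third among the controls, and the 4 other RAB35 probe sets differed by -0.22 to 0.20.

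Of the other RABs, RAB32, which serves lysosome-related organelles, was separate in SII. It lay at -0.01, 0.01 and 0.50 in trained arrays and -0.39, -0.18 and -0.58 in control arrays, a difference of 0.56 ± 0.28 (SE; limma adjusted p = 1.00), and 0.64 without the 3 arrays. In IPS its groups overlapped, with a difference of -0.09. RAB39A, whose probe set held floor values, had the most positive difference of the whole set in SII. It was 1.72 ± 0.71 (SE), or 1.99 without the 3 arrays, with overlapping groups, and it did not pass the test. RAB10, of low signal, had the lowest RAB difference in IPS. It was -1.03 ± 0.89 (SE), or -1.24 without the 3 arrays and -0.23 without IPS trained 2.

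**Figure D2:**
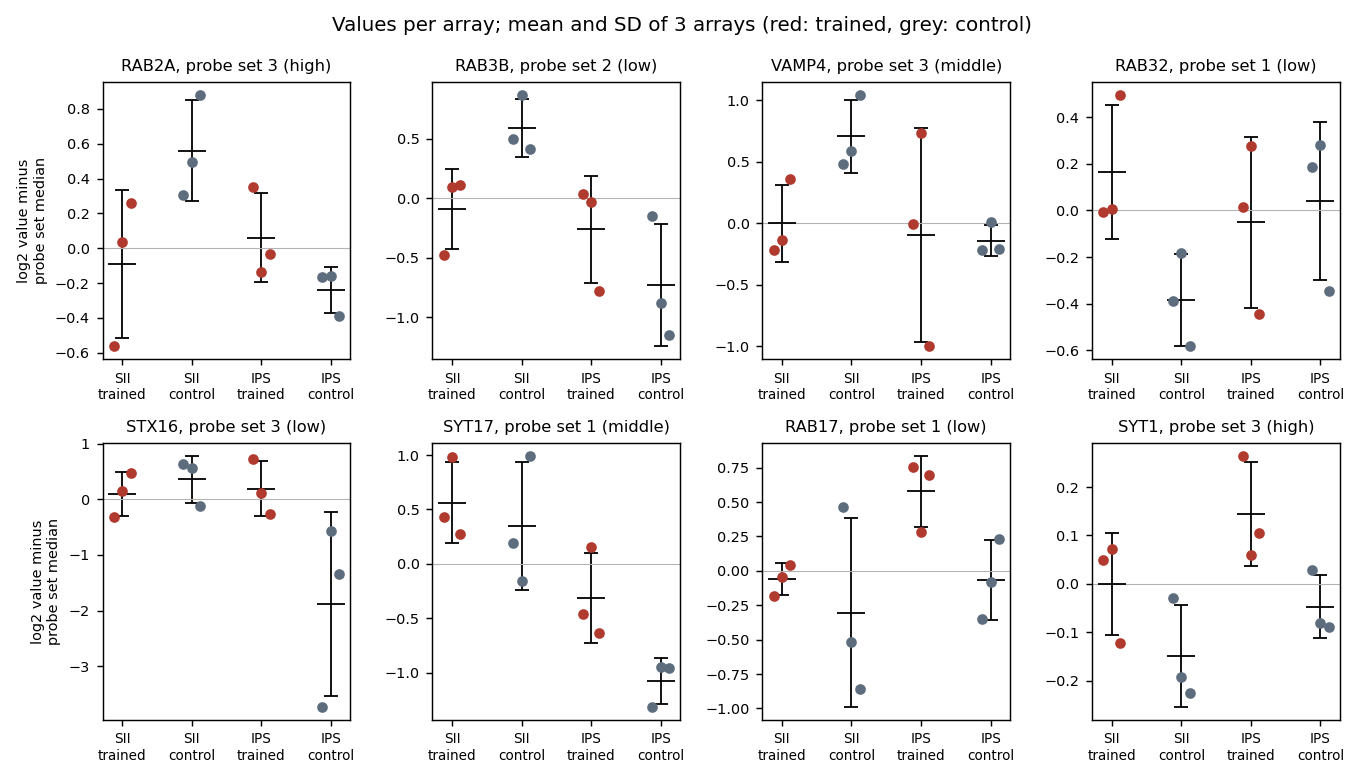
Log2 values relative to the probe set median (vertical axes) in the 12 arrays for 8 probe sets with separate trained and control groups in at least 1 region. Points are arrays, red for trained and grey for control animals, and bars give the mean and SD of 3 arrays. Separation in 1 region does not recur in the other except for RAB2A, where the order turns round.

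The plasma membrane syntaxins (STX1A, STX2, STX3, STX4 and STX11) had 7 of 9 probe sets above 0 in SII and 4 of 9 in IPS. STX1A, the syntaxin of transmitter release, lay at -0.48, 0.61 and 0.13 in SII trained arrays and -0.34, 0.33 and 0.21 in SII control arrays, which overlapped. STX4, a general exocytic syntaxin with a low signal here, lay at -0.12, 0.29 and 0.82 in SII trained arrays and -0.69, -0.20 and -0.73 in SII control arrays. These groups were separate, with a difference of 0.88 ± 0.57 (SE; limma adjusted p = 1.00), or 0.81 without the 3 arrays. In IPS the difference was -0.55, and 0.23 without the 3 arrays, and IPS trained 3 lay at -2.00, far below every other array. The 3 probe sets of STX3 pointed apart in SII, with -0.18, 0.21 and -1.14. In probe set 2 the groups were separate, with the difference of 0.21 ± 0.18 (SE), or 0.25 without the 3 arrays.

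Among the syntaxins of internal membranes (STX5, STX8, STX10, STX12, STX16 and STX18), 3 of 9 probe sets were above 0 in SII and 5 of 9 in IPS. STX16 probe set 3 (MmugDNA.39983.1.S1_at, low signal) had the largest difference of the set in IPS, with 0.72, 0.12 and -0.26 in trained arrays and -3.73, -0.57 and -1.35 in control arrays. The groups were separate, but the 3 controls were spread wider than all the other arrays, and the difference was 2.07 ± 0.69 (SE; limma adjusted p = 1.00), or 2.31 without the 3 arrays. It was 1.14 without IPS control 1. The other STX16 probe sets, of middle signal, differed by -0.15 and 0.12. STX8, a late endosomal SNARE, was separate in SII with a small difference of -0.15 ± 0.24 (SE; limma adjusted p = 1.00), or -0.10 without the 3 arrays and -0.09 without SII control 1.

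The vesicle SNAREs VAMP1 and VAMP2, the synaptobrevins of transmitter release, differed by -0.48 and -0.43 in SII and by 0.26 and 0.48 in IPS, with overlapping groups throughout. VAMP2 in IPS rested on control 1, at -2.37 against 0.03 and 0.15 in the other controls. VAMP4, a SNARE of the trans-Golgi network and endosomes, was separate in SII in probe set 3. It lay at -0.22, -0.14 and 0.36 in trained arrays and 0.48, 0.59 and 1.05 in control arrays, a difference of -0.69 ± 0.40 (SE; limma adjusted p = 1.00), or -0.74 without the 3 arrays. The other VAMP4 probe sets differed by -0.50 and 0.06.

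SNAP47, a ubiquitous SNARE of the SNAP family, differed by -0.04 in SII and 0.11 in IPS. SNAP91, taken in by its symbol, encodes the clathrin assembly protein AP180 of synaptic vesicle recycling rather than a SNARE. It lay at 0.96, 1.16 and -0.42 in SII trained arrays and -2.14, -0.34 and -0.63 in SII control arrays, so 1 trained array fell among the controls. Its difference of 1.60 ± 0.56 (SE; limma adjusted p = 1.00) was 0.75 without the 3 arrays. NAPA and NAPG, adaptors that load NSF onto SNARE complexes, differed by -0.33, -0.35 and 0.11 in SII and by 0.07, 0.17 and 0.30 in IPS.

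Of the syntaxin-binding genes, STXBP6 (amisyn, which occupies syntaxin in place of a VAMP) had a probe set 2 at 1.54, 1.47 and -0.03 in IPS trained arrays and -0.12, -0.51 and -0.66 in IPS control arrays. The groups were separate, with a difference of 1.46 ± 0.67 (SE; limma adjusted p = 1.00), or 1.93 without the 3 arrays. STXBP6 probe set 3 had -1.23 in the same comparison, or -0.75 without the 3 arrays. STXBP3, a syntaxin-binding protein of general exocytosis, had a high-signal probe set at -0.10, -0.69 and -0.11 in IPS trained arrays and 0.05, 0.11 and 0.01 in IPS control arrays, all trained below control. Its difference was -0.36 ± 0.31 (SE; limma adjusted p = 1.00), or -0.46 without the 3 arrays and -0.16 without IPS trained 2. The other STXBP3 probe sets had 0.06 and 0.26. CPLX2, a complexin that clamps and assists SNARE assembly, was separate in IPS in its high-signal probe set, at -0.24, -0.34 and -0.16 in trained and 0.08, 0.02 and -0.05 in control arrays. Its fitted difference there was -0.25 ± 0.44 (SE; limma adjusted p = 1.00), or -0.30 without the 3 arrays. This SE draws on all 4 groups, including SII trained 2 at 1.76, and was 0.18 without the 3 arrays.

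SYT1, the fast calcium sensor of transmitter release, was measured by 4 probe sets, 3 of them of high signal. Probe set 3 lay at 0.27, 0.06 and 0.11 in IPS trained arrays and 0.03, -0.08 and -0.09 in IPS control arrays, which were separate, with a difference of 0.19 ± 0.18 (SE; limma adjusted p = 1.00), or 0.21 without the 3 arrays. The 3 other probe sets differed by 0.11, -0.10 and 0.71 in IPS, and all 4 by -0.01, 0.22, 0.15 and -0.50 in SII. SYT17, a synaptotagmin relative that lacks a transmembrane segment, was separate in IPS in probe set 1. It lay at -0.46, 0.15 and -0.64 in trained arrays and -1.32, -0.95 and -0.95 in control arrays, a difference of 0.77 ± 0.34 (SE; limma adjusted p = 1.00), or 0.92 without the 3 arrays. Its probe set 2 differed by 0.06. SYT4, a synaptotagmin of dense-core vesicles, differed by 0.23 in SII and 0.01 in IPS.

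Among vesicle proteins, SV2A, the binding site of the antiepileptic drug levetiracetam, lay at 0.05, 0.16 and 0.07 in IPS trained arrays and -0.01, -0.05 and 0.00 in IPS control arrays. These were separate with a difference of 0.11 ± 0.25 (SE; limma adjusted p = 1.00), or 0.12 without the 3 arrays, while in SII the groups overlapped. SV2B differed by 0.12 and 0.00 in SII and IPS, and SV2C by -0.32 and -0.09. SYN2, which tethers synaptic vesicles to each other and to actin, differed by -0.14, -0.36 and -0.19 in SII and by 0.00, 0.18 and 0.02 in IPS over its 3 probe sets.

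The difference between the training effects, IPS minus SII, was tested directly. limma called 0 of 144 probe sets (0% of all), with 3 higher and 1 lower at an unadjusted p under 0.05 (2.78% together, against 3.68% of all, 1.63% higher and 2.05% lower), and the median over the set was 0.05, against -0.04 over all probe sets. RAB2A probe set 3 differed between the regions by 0.96 ± 0.38, STX16 probe set 3 by 2.34 ± 0.95, RAB3B probe set 2 by 1.14 ± 0.47 and RAB20 probe set 2 by -1.44 ± 0.59 (SE; limma adjusted p = 1.00 for each). Without the 3 arrays these were 1.20 for RAB2A, 2.48 for STX16, 1.55 for RAB3B and -1.53 for RAB20, and without IPS control 1 the STX16 value was 1.39. None of these passed the test of the difference itself.

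The regions were compared within each treatment, and no probe set passed there either. Both SII groups held a female animal and both IPS groups only males, so sex was not balanced in these comparisons. The region comparisons and the difference of the training effects reuse the arrays of the training comparisons. A probe set named in several of them therefore does not give independent results. The IPS control values of SYT17 probe set 1, RAB30 probe set 1 and STX16 probe set 3 enter both kinds, as do the SII control values of RAB3B probe set 2. Between IPS and SII of control animals limma called 0 of 144 probe sets (0% of all), with a smallest adjusted p of 0.554. At an unadjusted p under 0.05 there were 2 higher and 12 lower in IPS (9.72% together, against 7.65% of all, 3.52% higher and 4.12% lower). Groups were separate for 14 higher and 20 lower (23.6% together, against 19.4% of all, 10.7% higher and 8.7% lower). Between IPS and SII of trained animals limma also called 0 (0% of all), with 2 higher and 5 lower at an unadjusted p under 0.05 (4.86% together, against 4.89% of all, 1.68% higher and 3.21% lower). There, 10 probe sets were separate and higher in IPS and 3 separate and lower (9.03% together, against 7.87% of all, 3.38% higher and 4.5% lower). The smallest limma adjusted p in trained animals was 0.915, for RAB24 probe set 3, of low signal. It differed by -1.63 ± 0.55 (SE), or -1.47 without the 3 arrays, and the 2 other RAB24 probe sets had the opposite sign.

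The fitted difference of SYT17 was below 0 in both probe sets in both comparisons without passing the test, and its probe sets followed each other over the 12 arrays (r = 0.63). Probe set 1 (MmugDNA.16876.1.S1_at) lay at -1.32, -0.95 and -0.95 in IPS control arrays and 0.19, -0.15 and 0.99 in SII control arrays, which were separate. The difference was -1.42 ± 0.34 in controls (SE; limma adjusted p = 0.554) and -0.88 ± 0.34 in trained animals (adjusted p = 0.985), or -1.50 and -0.52 without the 3 arrays. Probe set 2 differed by -0.24 in controls and by -0.57 in trained animals, and its groups overlapped in both.

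NAPA, the alpha-SNAP adaptor of NSF, had the closest pair of probe sets (r = 0.97). Probe set 2 lay at -0.34, -0.38 and -0.46 in IPS control arrays and 1.24, 0.47 and 0.60 in SII control arrays, which were far apart. The difference was -1.15 ± 0.34 (SE; limma adjusted p = 0.554), and -0.92 without the 3 arrays. Probe set 1 differed by -0.84 in the same comparison. In trained animals the groups overlapped, with -0.43 and -0.63.

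STXBP2, a syntaxin-binding protein best known from secretion by blood cells and epithelia, had the largest positive difference of the set between IPS and SII of control animals. Its 1 probe set, of low signal, lay at 1.19, 1.68 and 1.39 in IPS control arrays and -0.43, -1.53 and -0.27 in SII control arrays, a wide gap. In trained animals it lay at 1.17, 2.14 and -0.12 in IPS and 0.12, -0.71 and -1.0 in SII, with IPS trained 3 among the SII values. The differences were 2.17 ± 0.54 in controls and 1.57 ± 0.54 in trained animals (SE; limma adjusted p = 0.554 and 0.941), or 2.32 and 2.07 without the 3 arrays. In trained animals RAB35 probe set 3 was higher still, at 1.67, or 0.80 without the 3 arrays. The 5 probe sets of mast cell and platelet markers, all of low signal or at the floor, went both ways in both comparisons with 2 of 5 above 0, from -1.26 to 0.86 in controls. Their part in the STXBP2 values was not tested.

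Between IPS and SII control arrays, RAB3B probe set 2 differed by -1.32 ± 0.33, RAB30 probe set 1 by -1.55 ± 0.38 and RAB7A probe set 2 by -0.78 ± 0.23 (SE; limma adjusted p = 0.554, 0.554 and 0.561), each with separate groups. Without the 3 arrays these were -1.36 for RAB3B, -1.49 for RAB30 and -0.89 for RAB7A. The RAB30 and RAB7A differences were not shared by the other probe sets of those genes, with 0.01 and 0.87 for RAB30 and 0.06 for RAB7A. RAB8B probe set 4, for a RAB of polarised exocytosis, was separate in both comparisons, at 0.41, 0.27 and 0.04 in IPS trained and -0.08, -0.18 and -0.04 in SII trained arrays. In control animals it lay at 0.41, 0.24 and 0.16 in IPS and -0.07, -0.18 and -0.08 in SII, a difference of 0.38 ± 0.19 (SE; limma adjusted p = 0.675), or 0.40 without the 3 arrays. Of the 5 other RAB8B probe sets, 3 shared this sign in control animals, and the 5 ran from -0.41 to 1.00. In the same comparison all 3 SYN2 probe sets were below 0, with a median of -0.38, and the VAMPs had a median of -0.31 with 3 of 9 above 0. Excitatory neuron markers had a median of -0.28 there over 6 probe sets with 1 above 0, and astrocyte markers had -0.32 over 6 with 2 above 0. Microglia markers had -0.31 over 15 with 2 above 0, and 3 of the 15 were lower at an unadjusted p under 0.05, as were 4.12% of all probe sets. Markers of meninges and fibroblasts had -0.23 over 13 with 3 above 0. Of all probe sets, 51.6% were above 0 in this comparison. GABA neuron markers had 0.23 over 7 with 5 above 0. No marker probe set passed the test, and the part of these cells in the values was not tested.

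**Figure D3:**
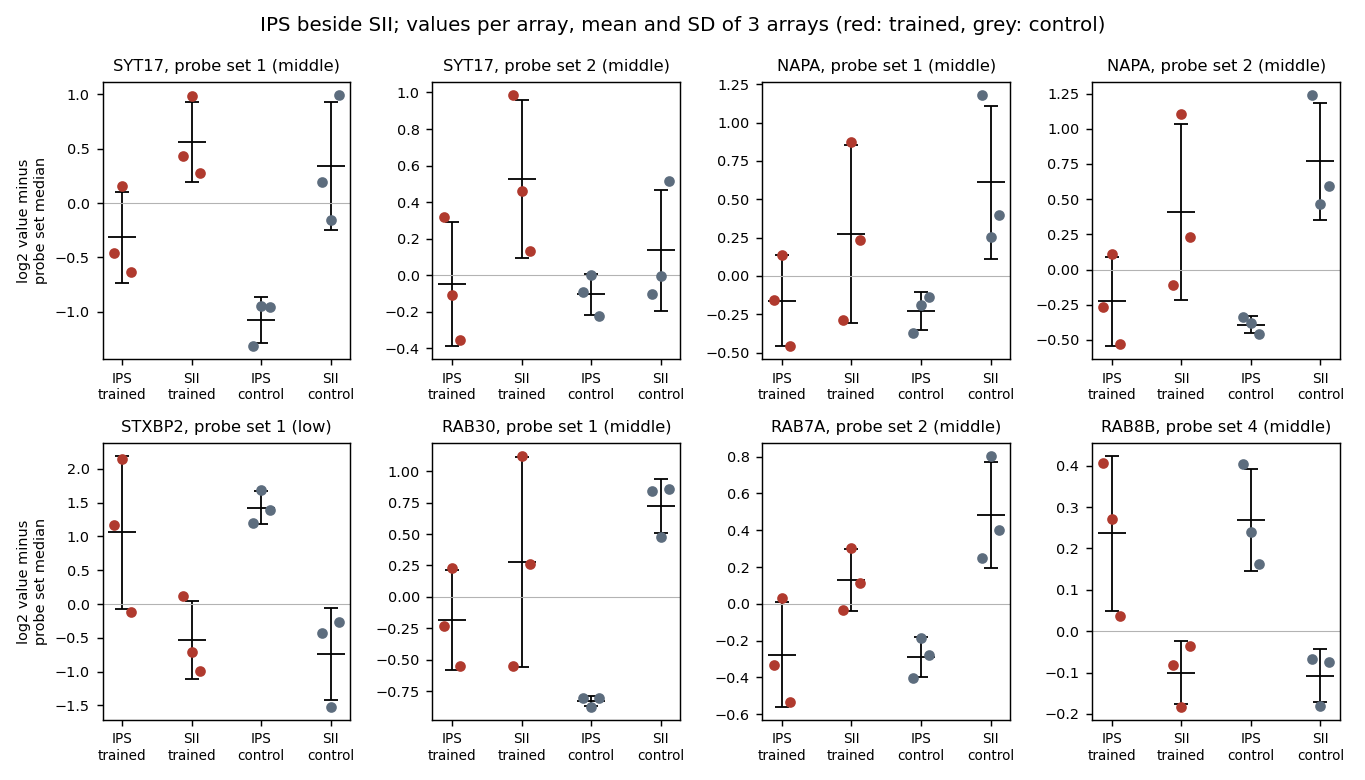
Log2 values relative to the probe set median (vertical axes) for 8 probe sets, with IPS left of SII in trained (red) and control (grey) animals. Points are arrays and bars the mean and SD of 3 arrays. In control animals SYT17 probe set 1 and both NAPA probe sets sit lower in IPS and STXBP2 sits higher, the groups of SYT17 probe set 2 overlap, and in trained animals the NAPA and STXBP2 groups overlap.

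Probe sets of the same gene often gave different answers. Of the 79 genes, 35 had several probe sets, up to 6 for RAB8B. For each of them the correlation between its probe sets over the 12 arrays was taken as the median over pairs, and the median of these over the 35 genes was 0.06, with 15 genes below 0 and 5 above 0.5. The 5 were NAPA at 0.97, RAB23 at 0.67, SYT17 at 0.63, RAB4A at 0.54 and RAB6B at 0.50. All probe sets of a gene had the same sign of the training difference for 13 of 35 genes in SII and 13 in IPS. After averaging the probe sets of a gene, limma called 0 of the 79 genes in every comparison, with 4 at an unadjusted p under 0.05 in SII (3.53% of all genes) and 0 in IPS (2.94% of all genes).

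**Figure D4:**
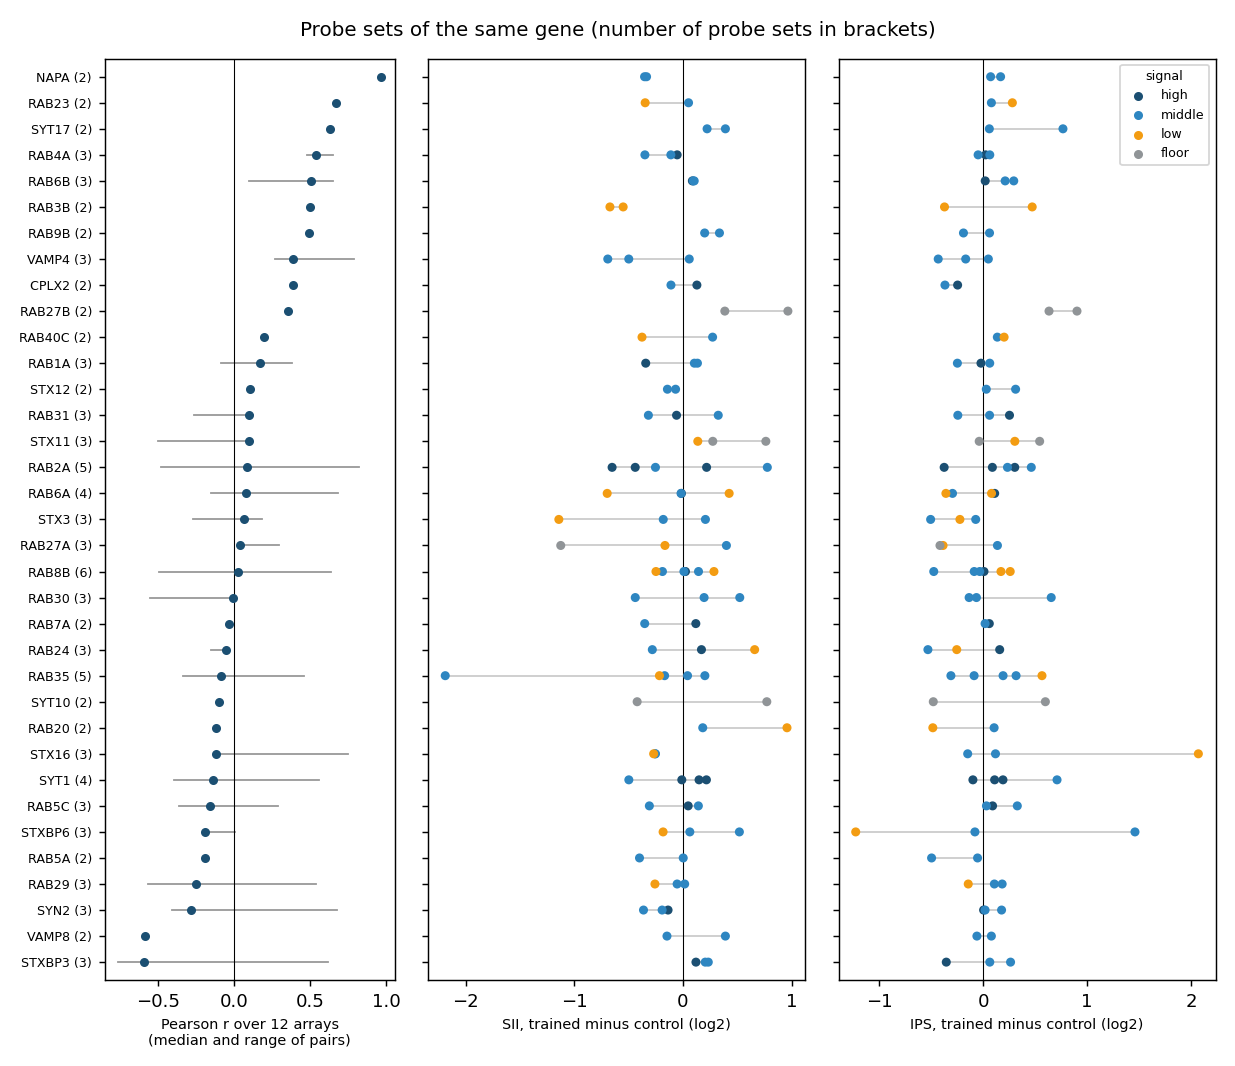
The 35 genes with several probe sets, ordered by the correlation between their probe sets over the 12 arrays (left, median and range over pairs), with the difference between trained and control animals of each probe set in log2 units in SII (middle) and IPS (right). Colours give the signal class. Most rows straddle 0, and NAPA, at the top, has its points almost on each other.

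The spread between arrays of a group set the precision. The median SD within groups was 0.41 over the vesicle traffic probe sets, against 0.57 over all probe sets. Within signal classes it was 0.25 against 0.23 for high, 0.39 against 0.37 for middle and 0.65 against 0.78 for low signals. The median standard error of a training difference in the set was 0.34 log2 units.

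Over the 12 arrays the profile of SYT1 probe set 3 was most like those of RAB17 (r = 0.73), SNAP47 (r = 0.69), RAB9B (r = 0.68), RAB27A (r = 0.61) and RAB33A (r = 0.57), each in 1 probe set, among 131 compared. The 4 SYT1 probe sets had a median correlation of -0.14 between pairs, so this is the profile of 1 probe set. Probe set 2 of RAB9B and of RAB27A had r = -0.09 and r = -0.33 with it, and the RAB17 probe set had a low signal. These correlations are descriptions over arrays that share animals and scaling.

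The surrounding machinery held no probe set past the test either. Lists of active zone and priming proteins, other SNAREs, RAB regulators and effectors, further vesicle and recycling proteins, and tethers covered 165 probe sets of 80 genes, of which limma called 0 in each comparison. At an unadjusted p under 0.05 there was 1 higher and 1 lower in SII (1.21%, against 3.87% of all probe sets), and there were 4 higher and 0 lower in IPS (2.42%, against 3.27% of all). Their median training difference was 0.00 in SII and 0.03 in IPS. Excitatory neuron markers had -0.15 in SII and 0.32 in IPS over 6 probe sets, with 2 and 5 above 0. GABA neuron markers had -0.08 in SII and -0.21 in IPS, with 1 of 7 above 0 in each. Markers of meninges and fibroblasts had -0.41 in SII with 2 of 13 above 0 and 2 lower at an unadjusted p under 0.05, where 1.35% of all probe sets were. In IPS they had -0.22 with 4 of 13 above 0. Microglia markers had 0.07 in SII and 0.11 in IPS, with 9 and 11 of 15 above 0. Of all probe sets, 56.4% were above 0 in SII and 51.7% in IPS. No marker probe set passed the test, and the part of these cells in the training differences was not tested.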

How the data were processed

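The authors deposited log2 values per probe set for 12 arrays, centred so that each probe set's median is 0; they used MAS5, per the submitters' processing notes. How arrays were scaled was not given in the sources used here. The log base was inferred from the values. Per the array's gene table, 24956 of 52766 probe sets had 1 symbol, 361 several and 27449 none, and 99 controls were left out. Signal classes were recovered from the spacing of the stored numbers, and floors from differences shared by many probe sets.

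With limma 3.58.1, statmod 1.5.0 and R 4.3.3, a model of the 4 groups was fitted to all probe sets, allowing arrays from 1 animal to correlate, with Benjamini-Hochberg adjustment over all 52766. The comparisons were trained against control in each region, the difference of these, and IPS against SII in trained and in control animals, all 2-sided. Each SE comes from a spread pooled over all 4 groups, not from the compared groups alone. The number of arrays limits the precision.

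The members and lists were chosen with earlier results of these data known, and the role groups were formed after the values were seen. Probe sets of a gene were numbered by signal class. Picked for naming were probe sets with separate groups, up to 10 higher and 10 lower per region by p, and up to 6 each way for the other comparisons. Also picked were the highest and lowest of each family, genes fixed by role, and the 5 most like SYT1. Not every one of these is described above. Replicate numbers matched animals across regions only for trained replicates 1 and 3, and same-numbered arrays deviated together with correlations of -0.20 to 0.06. Settings tried were scaling, animal block, replicate block, array weights, sex, males only, floors, signal class, gene means, region alone, a plain 2-sample test and each array left out. The limma script was tested on simulated data.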

Additional observations from a re-analysis of the deposited data

Results flagged for a closer look

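RAB2A probe set 3 (MmugDNA.33650.1.S1_at) was picked out because every trained array lay below every control array in SII and above every control array in IPS. Its control groups differed between the regions by -0.80, IPS minus SII, and its trained groups by 0.16, over the same arrays. The difference between the training effects was 0.96 ± 0.38 log2 units (SE; limma adjusted p = 1.00), so it did not pass the test. Of all 52766 probe sets, 163 (0.309%) showed opposite separation of this kind. It ranged from 0.71 to 1.14 with each array left out in turn.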

How the results depend on the processing

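limma called 0 vesicle traffic probe sets or genes under every alternative run: 26 for each training comparison, 24 for their difference and 25 for each region comparison. Of these, leaving out floor probe sets tested 135, high or middle signals 104 and gene means 79 members, and the others 144. The smallest adjusted p of any member was 0.0735. The share of members at an unadjusted p under 0.05 ran from 1.92% to 6.94% in SII training (against 2.7% and 4.54% of all features in those settings), 0% to 4.86% in IPS training (2.94% and 7.15%), 0% to 7.64% for their difference (3.41% and 7.45%), 2.08% to 7.64% for region in trained (4.21% and 5.68%) and 6.94% to 15.3% for region in control animals (5.77% and 11% for the plain 2-sample test, or 13.4% for array weights). It lay below the share of all features in 14, 25, 19, 16 and 1 of those alternatives, in that order. Without the 3 arrays with raised hybridisation controls the median over the set moved to 0.13 for the difference of the training effects and to 0.14 for region in trained animals. With each array left out in turn these medians ranged from -0.0201 to 0.0927 and from 0.00 to 0.10, and the lowest of the first was without IPS trained replicate 1. With the replicate number as a block, limma called 0, and the medians were 0.00 in SII, 0.06 in IPS, 0.05 for the difference, 0.06 for region in trained and -0.01 for region in control animals.

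Of the 57 differences picked by separate groups or by p, leaving out 1 array moved 23 by over 1.5 times. Across all settings 1 changed sign: RAB27B probe set 2 (MmugDNA.15744.1.S1_at) in IPS training, at -0.0063 with 1 common floor. With the highest and lowest of each family there were 89 picked differences, of which 17 changed sign. Without the 3 arrays the sign turned for STX4 in IPS (0.2282), SNAP91 in IPS (-0.035), SV2C in IPS (0.011), and in SII for STXBP6 probe set 2 (-0.5413), SNAP47 (0.0587), CPLX2 probe set 1 (-0.3914) and NAPG (-0.2562). With males only those 4 SII values were -0.5293, 0.0599, -0.3924 and -0.2549, and with array weights -0.1928, 0.0183, -0.0732 and -0.0584. CPLX2 probe set 1 was -0.0772 in SII after quantile normalization, and SYN2 probe set 1 was -0.002 in IPS with each array centred. With each array left out in turn, values crossing 0 in SII ranged from -0.3209 to 0.0573 for CPLX2 probe set 2, -0.8371 to 0.1335 for SYN2 probe set 2, -0.3056 to 0.0056 for SYN2 probe set 1, -0.5459 to 0.1466 for STXBP6 probe set 3, -0.0249 to 1.1975 for STXBP6 probe set 2, -0.5567 to 0.0149 for SV2C, -0.0957 to 0.0799 for SNAP47, -0.5058 to 0.5035 for CPLX2 probe set 1 and -0.3912 to 0.4484 for NAPG. In IPS they ranged from -0.339 to 0.9137 for VAMP2, -0.9768 to 0.3267 for CPLX2 probe set 2, -0.1006 to 0.1313 for SYN2 probe set 1, -0.1423 to 0.408 for SNAP91, -0.3741 to 0.1658 for SV2C, -0.072 to 0.2247 for NAPA probe set 1 and -1.0895 to 0.2302 for STX4. The cause was not tested for any of these moves. Floor values, low signals and 3 arrays a group limit what could be seen.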
